A study of Mus musculus with 29 samples.

Results

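C70-treated 3T3-L1 cells on day 2 of differentiation were compared with vehicle-treated cells on day 1, so that each gene could be placed against an earlier point of the normal course rather than against the same day. The comparison used 7 of the 29 RNA-seq samples of the series, 4 C70 replicates of day 2 and 3 vehicle replicates of day 1, and took in all 11959 genes of the count table. The members were the samples whose column names carry day 2 with C70 or day 1 with DMSO. The question was which genes of C70 cells on day 2 still sat at the vehicle day 1 level, and which lay outside the levels that vehicle cells showed on any sampled day.

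All cells were 3T3-L1, an established mouse preadipocyte line that can be driven to differentiate into fat-storing cells, with no transgene or knockout. C70 cells received 10 µM KDM5-C70, an inhibitor of the KDM5 histone demethylases, from day -2, when the cells were confluent, to day 0. Vehicle cells received DMSO over the same days. Both groups were then given differentiation medium with dexamethasone, insulin, IBMX, and a PPARγ agonist, so on day 1 and day 2 the drug had been withdrawn and the hormones were present in both. Vehicle samples of days 0, 2, and 7, with 3, 3, and 4 replicates, gave the normal course. The labels do not say whether replicates came from separate cultures, so P values measure the spread between these samples, which may be technical. The course was known only at 4 days, and no sample lay between day 1 and day 2 or between day 2 and day 7. One cell line and a single drug schedule were studied.

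KDM5 enzymes remove methyl groups from lysine 4 of histone H3, a mark found at active promoters. When growth-arrested 3T3-L1 preadipocytes receive the hormones, C/EBPβ and C/EBPδ rise first, the cells pass through rounds of division called mitotic clonal expansion, and PPARγ and C/EBPα then turn on the genes of fat storage. Matrix, contractile, and preadipocyte genes fall over the same days.

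Total counts were 19978362 to 20268764 in vehicle day 1, 16320275 to 19178452 in C70 day 2, and 19073684 to 23768093 in vehicle day 2 samples. Levels are given as CPM, read counts scaled to a common library total, after normalization by the trimmed mean of M values (TMM), and they are not corrected for gene length, so they are compared between samples and not between genes. Replicate 1 stood apart in both vehicle groups. The chi-square of counts per degree of freedom was 9.27 and 12.7 for its pairs on vehicle day 1, beside 3.68 for replicates 2 and 3, and 13.9 and 10.6 on vehicle day 2, beside 3.61, whereas C70 day 2 pairs ranged from 3.27 to 6.83. The adipocyte markers Adipoq, Fabp4, Plin1, and Cidec and the fibroblast markers Col1a1, Col1a2, Dlk1, and Thy1 were all present in C70 day 2 cells. Of 12 markers of macrophages, endothelium, epithelium, and skeletal muscle, only Cd68 and Des were among the genes tested, and both are described with the genes outside the course.

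The C70 day 2 samples lay midway between vehicle day 1 and vehicle day 2, but off the line that joins them. Each sample was projected on that line in log2(CPM + 1) over all genes, with the vehicle day 1 mean at 0 and the vehicle day 2 mean at 1, and each vehicle day 1 or day 2 sample was placed on a line made without it. The 4 C70 day 2 samples stood at 0.486, 0.546, 0.504, and 0.481 (mean 0.504 ± 0.0295, SD, n = 4). Vehicle day 1 samples stood between -0.0123 and 0.0592, and vehicle day 2 samples between 0.967 and 0.997. The C70 group thus overlapped neither vehicle group, and an exact two-sided permutation test gave P = 0.0286 against each, the smallest value that 35 arrangements allow.

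The distance from the line was 0.321 to 0.329 log2 units per gene (root mean square) in C70 day 2 samples and 0.122 to 0.150 in vehicle day 1 and day 2 samples. The C70 day 2 mean was 0.426 from the vehicle day 1 mean and 0.423 from the vehicle day 2 mean, whereas those 2 means were 0.582 apart. C70 cells of day 1 stood at -0.202 ± 0.0101 (SD, n = 4), on the day 0 side of vehicle day 1, and were also off the line. Position rose from -0.202 to 0.504 between days 1 and 2 in C70 cells and from 0.018 to 0.984 in vehicle cells.

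**Figure D1:**
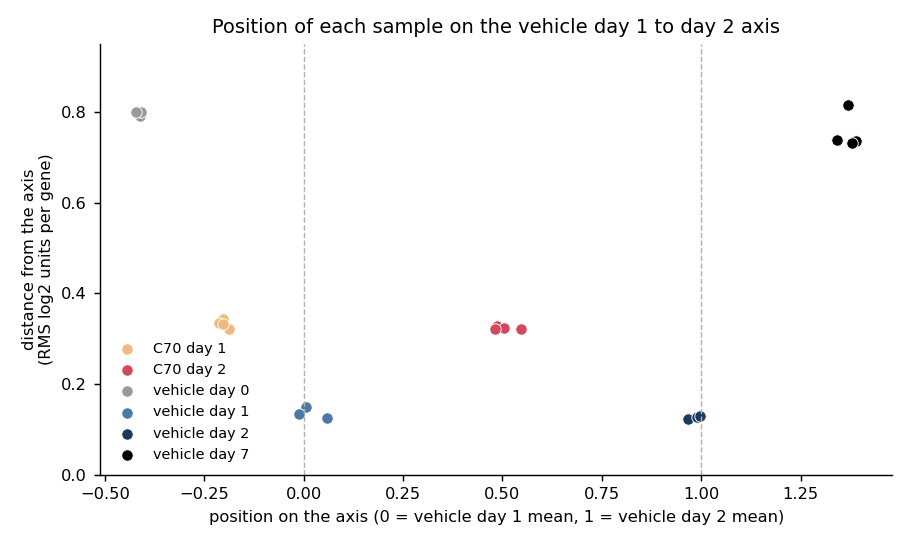
Each point is 1 sample. The x axis is its position on the line from the vehicle day 1 mean (0) to the vehicle day 2 mean (1), and the y axis is its distance from that line in log2 units per gene (root mean square). The 4 C70 day 2 samples lie between 0.481 and 0.546, farther from the line than vehicle samples of days 1 and 2.

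A gene was called when edgeR's quasi-likelihood test gave it an adjusted P under 0.05 and its level differed by more than 0.32 log2 units in either direction. In C70 day 2 against vehicle day 1, 3469 of 11959 genes were called (29%), of which 2070 were higher (17.3%) and 1399 lower (11.7%). That split depended on scaling, since upper quartile scaling gave 1681 higher and 1827 lower and quantile normalization 1636 and 1797. The normal step, vehicle day 2 against vehicle day 1, called 5292 genes (44.3%), with 2662 rising (22.3%) and 2630 falling (22%). C70 day 2 against vehicle day 2 called 3642 genes (30.5%), with 2021 higher (16.9%) and 1621 lower (13.6%). Without replicate 1 of vehicle day 1 the 3 comparisons called 3397, 5161, and 3643 genes, and without replicate 1 of vehicle day 2 they called 3466, 5234, and 3595. These 3 comparisons share samples in pairs, so they are set side by side and are not independent of each other.

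The 2070 genes higher than on vehicle day 1 were mostly genes of the normal step, since 1451 of them rose in vehicle cells too, 217 fell there, and 402 did not pass the test there. Of the 1399 lower genes, 1026 also fell in vehicle cells, 23 rose, and 350 did not pass. Most of the difference between C70 day 2 and vehicle day 1 thus had the direction of the normal step, and 240 genes differed in the opposite direction. Both differences are taken from the same vehicle day 1 samples, and the agreement that this alone would give was not measured.

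Each of the 5292 step genes was then placed on its own step. A gene was held at day 1 if the 95% interval of its difference from vehicle day 1 stayed within 0.32 log2 units either way and it was called against vehicle day 2. This put 637 genes (12%) at the day 1 level, 242 of them rising and 395 falling in the normal step. A further 1041 genes (19.7%) were partway, called against both days and between them, and 563 (10.6%) had reached the day 2 level within the same margin. Another 128 genes (2.42%) were past day 2, and 240 (4.54%) were backward, that is, called on the side of the vehicle day 1 level away from day 2, 217 of them normally falling genes with a level above day 1. The remaining 2683 (50.7%) could not be placed, because their intervals were too wide or their steps too small for the margin. Without replicate 1 of vehicle day 1, 523 genes were held and 213 backward, and without replicate 1 of vehicle day 2, 665 and 226. These places, and the share of a step covered, describe the level of C70 day 2 cells against vehicle cells, not the way that level was reached from C70 day 1.

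The median step gene of C70 day 2 cells had covered 0.497 of its log2 step, with quartiles of 0.242 and 0.700. For steps over 2-fold, the median was 0.642 over 616 rising genes and 0.310 over 617 falling genes. This gap narrowed but kept its direction under the other scalings, with 0.606 and 0.406 under quantile normalization. Over all steps the medians were 0.557 for rising and 0.400 for falling genes, and quantile normalization brought them to 0.505 and 0.486. All of these are fractions of log2 steps. On linear CPM the medians over all steps were 0.480 for rising and 0.468 for falling genes, so little of the gap remained. Steps over 2-fold were not measured on that scale. Backward genes were mainly falling ones under every scaling, with 157 to 217 falling and 20 to 30 rising.

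Of the 3263 genes that were flat in vehicle cells between days 1 and 2, 2613 (80.1%) were within the same 0.32 log2 margin of vehicle day 1 in C70 day 2 cells as well. In this flat group 79 genes were called higher and 99 lower than vehicle day 1, beside 17.3% and 11.7% of all genes. Flat genes had no call and a vehicle interval within the margin. Of the 3404 other genes without a call in that step, 1203 (35.3%) were within the margin of vehicle day 1. Flat genes were chosen by narrow intervals from the same vehicle day 1 samples, so their high share is partly fixed by that choice.

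**Figure D2:**
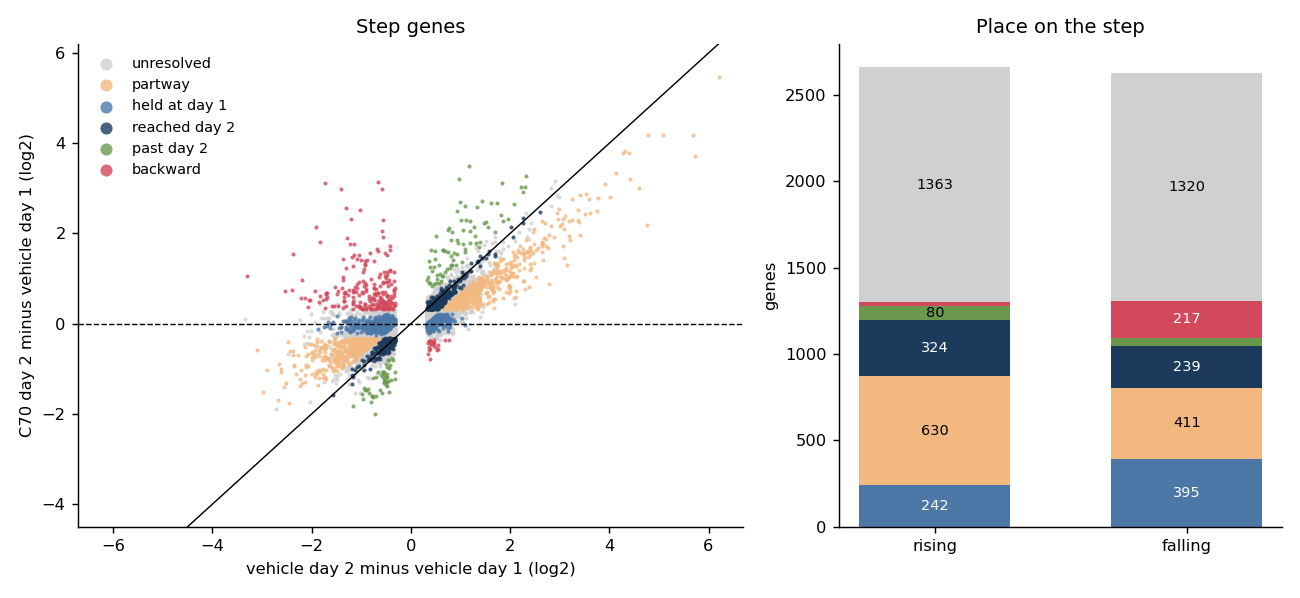
Left, the log2 difference of C70 day 2 (y axis) and of vehicle day 2 (x axis) from vehicle day 1 for the 5292 step genes, colored by place. Genes on the dashed line matched the vehicle day 1 level and genes on the solid line the vehicle day 2 level. Right, the number of rising and falling step genes in each place, with 217 falling genes backward.

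Most genes of the mature adipocyte stood well above vehicle day 1. Of 26 genes for adipocyte proteins, 21 rose in the normal step (22.3% of all genes did) and 22 were higher in C70 day 2 than in vehicle day 1 cells, beside 17.3% of all genes, while 14 were lower than on vehicle day 2, beside 13.6%. The median member with a step had covered 0.792 of it on the log2 scale. This stands beside 0.497 over all step genes and 0.642 over rising genes with a step over 2-fold. In the mean of log2(CPM + 1), the list stood at 7.720 to 7.826 in C70 day 2 samples, between 5.996 to 6.162 on vehicle day 1 and 8.183 to 8.227 on vehicle day 2.

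Plin1, which encodes the coat protein perilipin 1 of the lipid droplet (chromosome 7, 79720218 to 79732903 in GRCm38), had reached its day 2 level. Its CPM was 101, 109, and 96.2 on vehicle day 1, 542, 621, 568, and 542 in C70 day 2, and 610, 628, and 614 on vehicle day 2. The C70 samples were 5.57 times vehicle day 1 (log2 difference 2.48 ± 0.058, SE, adjusted P = 9.6e-24), and they overlapped the vehicle day 2 range (log2 difference -0.12, adjusted P = 0.075). Plin4, Abhd5, and Cav1 were the other list members at the day 2 level.

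Adipoq encodes the adipocyte hormone adiponectin, and it had covered 82.3% of its log2 step. It measured 14.2, 16.9, and 12.8 CPM on vehicle day 1, 247, 298, 273, and 243 in C70 day 2, and 477, 510, and 491 on vehicle day 2. All C70 samples lay between the 2 vehicle days, 18.1 times the first and 0.537 times the second (log2 difference from vehicle day 1 4.18 ± 0.097, SE, adjusted P = 7.1e-24).

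Fabp4, the fatty acid carrier of adipocytes, was also between the days, with 784 to 930 CPM on vehicle day 1, 3490 to 4030 in C70 day 2, and 7170 to 7800 on vehicle day 2. Retn, the gene of the adipokine resistin, had covered 88.4% of its step, and Cidec, which drives fusion of lipid droplets, 80.7%. Gpd1 makes glycerol 3-phosphate for triglyceride, and it stood lower on its 53.2-fold step, at 160 to 225 CPM beside 735 to 766 on vehicle day 2. Mrap, which carries the corticotropin receptor to the cell surface, showed the largest rise from vehicle day 1 by the rule for named genes, from 1.32 to 2.07 CPM up to 26.7 to 36.7. Among the exceptions, Angptl4, an inhibitor of lipoprotein lipase, fell in vehicle cells and had covered part of that fall in C70 day 2 cells, and Apoe, the apolipoprotein E gene, was past day 2 and above all 4 vehicle days. Apoe measured 150 to 176 CPM in C70 day 2 and 103 to 116 on vehicle day 2, its highest vehicle day.

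The transcription factors that lead the program were spread over all places. Of 29 in the list, 10 were higher and 6 lower in C70 day 2 than in vehicle day 1 cells, beside 17.3% and 11.7% of all genes. Pparg, the central regulator of fat cell genes, measured 78.1, 83.4, and 78.6 CPM on vehicle day 1, 103, 114, 120, and 113 in C70 day 2, and 165, 166, and 170 on vehicle day 2. These samples did not overlap, and C70 cells had covered 46.3% of the step (log2 difference from vehicle day 1 0.49 ± 0.054, SE, adjusted P = 8.2e-09). Cebpa, which works with Pparg, was at 48.7% of its step, with 98.1 to 118, 186 to 199, and 331 to 375 CPM in the same order of groups.

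Among the early factors, Cebpd, normally falling by day 2, measured 96.9 to 104 CPM in C70 day 2 cells beside 104 to 123 on vehicle day 1 and 59.5 to 72.5 on vehicle day 2, and the test against vehicle day 1 was not passed (adjusted P = 0.16). Cebpb passed neither test, at 120 to 139 CPM beside 118 to 170 and 93.6 to 130. Klf5, an early activator of Pparg, was held at day 1, with 85.2 to 93.8 CPM beside 98 to 108 and 39.6 to 47.1. Its interval left the margin in 4 of 10 fits without 1 library. Klf5 also could not be placed under the other scalings, with DESeq2, or with a replicate block, and it was partway by the adjusted P alone. Nr1h3, the sterol receptor LXRα, had reached day 2 at 55.4 to 60.7 CPM but could not be placed without vehicle day 2 replicate 2 or without C70 day 2 replicate 2, Klf15 was partway, and Ppargc1a, the coactivator of mitochondrial genes, was past day 2 and above all vehicle days (log2 difference from vehicle day 2 1.03). Hmga2, a chromatin protein of undifferentiated cells, was backward, 0.53 log2 units above vehicle day 1.

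Fatty acid, triglyceride, and cholesterol genes lay mostly between the vehicle days. Of 29 fatty acid and triglyceride genes, 19 were higher than on vehicle day 1 (17.3% of all genes), 2 were lower (11.7%), and 19 were below vehicle day 2 (13.6%), with a median of 0.585 of the step, beside 0.497 over all step genes. Fasn, the fatty acid synthase gene, measured 844 to 950 CPM on vehicle day 1, 1350 to 1400 in C70 day 2, and 2590 to 2730 on vehicle day 2. This was 39.0% of its step. Scd1 (desaturation of fatty acids) had covered 65.1%, Acaca (the first step of fatty acid synthesis) 52.6%, Lpin1 (phosphatidate to diacylglycerol) 47.9%, Dgat2 (the last step to triglyceride) 60.6%, Agpat2 59.8%, and Thrsp 46.0%. The 2 members that fell in the normal step were Elovl6, an elongase that was past its day 2 level (log2 difference from vehicle day 2 -0.70), and Idh1, which had reached it.

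Of 24 cholesterol genes, 22 rose in the normal step, 17 were higher in C70 day 2 than in vehicle day 1 cells (17.3% of all genes), and 21 were lower than on vehicle day 2 (13.6%). The median fraction was 0.313, beside 0.497 over all step genes, and no member with a step had reached day 2. Cyp51 (lanosterol demethylase) measured 148, 170, and 138 CPM on vehicle day 1, 577, 641, 594, and 568 in C70 day 2, and 1620, 1580, and 1620 on vehicle day 2. The C70 samples stood between the days, at 57.9% of a 10.6-fold step (log2 difference from vehicle day 1 1.97 ± 0.062, SE, adjusted P = 6.8e-21). Insig1, the sterol-sensing retention factor of SREBP, had covered 47.4%, and Msmo1 49.5%. Fdps had covered 31.8% at only 2.29 to 2.57 CPM in C70 day 2 cells, and it may share reads with near-identical copies, so its value is uncertain.

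Among the genes of this list held at the vehicle day 1 level were Hsd17b7, Sc5d, and Stard4. Sc5d, a late sterol desaturase, measured 30.1, 25.5, and 24.6 CPM on vehicle day 1, 28.1, 31.3, 29.9, and 27.3 in C70 day 2, and 56, 53.3, and 55.9 on vehicle day 2. Stard4, a carrier of cholesterol, stood at 19.6 to 26.8 CPM beside 21.6 to 22.8 on vehicle day 1. For Sc5d and Stard4 the C70 day 2 samples overlapped those of vehicle day 1, and vehicle day 2 samples were above both. Sc5d left the held class without vehicle day 1 replicate 1 (log2 difference 0.216), and Stard4 in 4 of 10 fits without 1 library. Srebf2, the main regulator of the pathway, had no vehicle step and was lower than on either day (log2 difference from vehicle day 1 -0.43).

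Many mitochondrial genes differed from vehicle day 1 in the direction of the normal step. Of 77 subunits of oxidative phosphorylation, 72 rose in the normal step, 60 were higher in C70 day 2 than in vehicle day 1 cells (17.3% of all genes), none was lower (11.7%), and 40 were below vehicle day 2 (13.6%). The fraction covered ran from 0.220 to 0.934 with a median of 0.560, so no member with a step was backward or past day 2. Cycs, the gene of cytochrome c, measured 81.5 to 93, 177 to 200, and 276 to 297 CPM on vehicle day 1, C70 day 2, and vehicle day 2, and it has 2 pseudogenes of its name in the annotation, so its reads could be split. Uqcrfs1, Uqcrq, and Cyc1 of complex III had covered 65.1%, 52.0%, and 57.8%.

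Of 77 mitochondrial ribosome genes, 62 rose in the normal step, 36 were higher than on vehicle day 1, and 25 were below vehicle day 2, beside the same 17.3% and 13.6% of all genes, with a median fraction of 0.581. Mrpl12 was partway at 63.3% of its step, and 8 of 63 members with a step, among them Mrpl57 and Mrps11, were held at day 1, which is close to the 12% of all step genes. Of 31 genes of the TCA cycle and of pyruvate entry, 27 were higher and 2 lower than on vehicle day 1 (17.3% and 11.7% of all genes), with a median fraction of 0.623. Mdh1, the cytosolic malate dehydrogenase, measured 338 to 350 CPM in C70 day 2 beside 134 to 148 and 586 to 601, and Mpc1, a pyruvate carrier, was at 76.4% of its step and has 1 pseudogene of its name.

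Pdk4, Pdk3, and Pdk1, which encode kinases that switch off pyruvate dehydrogenase, lay outside the span between vehicle days 1 and 2, in different directions. Pdk4 was backward and above all 4 vehicle days, at 242, 210, 231, and 236 CPM beside 173, 152, and 163 on vehicle day 1 and 86.2 to 96 on vehicle day 2. Pdk3 was below all 4 vehicle days (log2 difference from vehicle day 1 -0.43), and Pdk1 was lower than on either of days 1 and 2. Ldha, which makes lactate from pyruvate, was also backward, at 573 to 634 CPM beside 733 to 926 on vehicle day 1 and 1120 to 1130 on vehicle day 2. It lost the call without vehicle day 1 replicate 2 (log2 difference -0.317), and it has 2 pseudogenes of its name in the annotation.

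Of 80 genes of the cytosolic ribosome, 48 fell in the normal step, beside 22% of all genes. In C70 day 2 cells 26 were lower than on vehicle day 1, beside 11.7% of all genes, the others were not called in that comparison, and none was called against vehicle day 2. Their median fraction was 0.709. Rps20 measured 346 to 365 CPM in C70 day 2 beside 496 to 513 on vehicle day 1 and 299 to 317 on vehicle day 2. Rps12 has 24 pseudogenes of its name in the annotation, so reads of such genes could be split. None of 40 genes of ribosome assembly was called against vehicle day 1, beside 29% of all genes. Of these 40, 3 rose and 1 fell in the normal step.

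Mitotic genes lay outside the span between the vehicle days. Of 58 genes of the mitosis list, 56 were lower in C70 day 2 than in vehicle day 1 cells, beside 11.7% of all genes, and 55 were also lower than on vehicle day 2, beside 13.6%. The vehicle step itself was small, with 5 members rising and 22 falling. The median log2 difference was -1.02 from vehicle day 1 and -0.818 from vehicle day 2, while the median vehicle step was -0.239. Only Bub3 and Incenp were not called against vehicle day 1, and only Bub3, Cdc25b, and Nusap1 against vehicle day 2. Of the 27 members with a step, 20 were past day 2, beside 2.42% of all step genes. Another 5 (Mad2l1, Ttk, Spc24, Spc25, and Cdca3) were backward, beside 4.54%. In bulk RNA, fewer dividing cells and less of these transcripts per cell cannot be told apart.

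Top2a, which untangles chromosomes, measured 217, 252, and 261 CPM on vehicle day 1, 84.9, 89.1, 86.6, and 90.8 in C70 day 2, and 128, 127, and 130 on vehicle day 2. The C70 samples were below both vehicle groups with no overlap (log2 difference from vehicle day 1 -1.47 ± 0.079, SE, adjusted P = 7.9e-16, and from vehicle day 2 -0.55, adjusted P = 1.1e-06). Day 7, with 2.55 to 3.61 CPM in vehicle cells, was lower still, so these genes did not count as below the course.

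Ccnb1, the mitotic cyclin B1, measured 14.1, 15.5, 16.6, and 14 CPM in C70 day 2 beside 31.6 to 34.3 on vehicle day 1 and 26.4 to 31 on vehicle day 2, and it has 1 pseudogene of its name. Cdc20, an activator of the anaphase complex, measured 18.8 to 21.7 CPM beside 42.1 to 50.9 and 29.8 to 32.4. Kif20a, a kinesin of cytokinesis, had one of the 2 largest falls by the rule for named genes, to 26.9 to 28.6 CPM from 86.1 to 96. Kif23, a related kinesin, was at 0.284 times vehicle day 1 and 0.636 times vehicle day 2. Ccna2, cyclin A2, was flat in vehicle cells at 43.9 to 54 CPM over both days and 27.4 to 31.5 CPM in C70 day 2. Cdc25b was the member that had only reached its day 2 level, at 15.6 to 17.5 CPM beside 15.3 to 15.8. Ccna2, Cdc20, Kif20a, and Cdc25b each overlap a gene on the other strand, and since use of strand in the counting is not stated, reads of such pairs cannot be told apart. The same holds for other genes named here, among them Agpat2, Ccnd1, Cdc45, Cebpb, Cebpd, Cyp51, Gpd1, Hsd11b1, Mdh1, Sult1a1, and Tk1.

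The promoters of these genes share short elements that the comparison did not use. The cell cycle homology region (CHR, searched as TTTGAA on both strands) was present in 72% of 50 promoters of 47 mitosis genes, beside 11.9% of 11494 promoters of tested genes and 17.9% of all 32851 promoters, each of 300 bases around the start. The CCAAT box (CCAAT on both strands) was present in 78%, beside 38.2% of promoters of tested genes. In the class past day 2 the CHR letters stood in 33.9% of 115 promoters, and in 25.3% of 99 once the mitosis list was left out, while the held class had them in 9.87% of 709. The promoters of 4 genes are shown because their genes were below both vehicle days, as 100 bases before to 20 after the start (RefSeq, GRCm38.p6, all on the minus strand), with CHR and CCAAT letters of either strand in capitals. The windows are chr11:99024170-99024289 for Top2a, chr9:61946780-61946899 for Kif23, chr4:118437324-118437443 for Cdc20, and chr13:100786467-100786586 for Ccnb1.
Top2a: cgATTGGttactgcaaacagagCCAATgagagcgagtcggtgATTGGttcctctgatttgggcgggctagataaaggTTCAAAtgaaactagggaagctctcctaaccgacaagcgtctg
Kif23: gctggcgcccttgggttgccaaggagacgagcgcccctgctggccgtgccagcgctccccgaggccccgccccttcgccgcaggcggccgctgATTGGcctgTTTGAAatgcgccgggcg
Cdc20: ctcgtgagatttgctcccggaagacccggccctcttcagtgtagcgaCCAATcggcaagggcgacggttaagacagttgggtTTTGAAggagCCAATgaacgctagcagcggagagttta
Ccnb1: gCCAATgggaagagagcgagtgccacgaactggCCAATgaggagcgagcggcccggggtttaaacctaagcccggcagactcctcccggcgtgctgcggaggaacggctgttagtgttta

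The Top2a window held 3 CCAAT boxes and 1 CHR, Kif23 1 of each, Cdc20 2 CCAAT boxes and 1 CHR, and Ccnb1 2 CCAAT boxes. That Ccnb1 shows no TTTGAA here says only that these letters are not in this window.

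The mean level of DNA replication genes lay near vehicle day 1 on C70 day 2, while members differed in both directions. Of 51, 25 rose in the normal step, 5 were higher and 10 lower in C70 day 2 than in vehicle day 1 cells, beside 17.3% and 11.7% of all genes, and 32 were lower than on vehicle day 2, beside 13.6%. The list mean was 4.324 to 4.366 in C70 day 2 samples and 4.328 to 4.448 on vehicle day 1, so the groups overlapped, whereas vehicle day 2 samples stood at 4.706 to 4.774. C70 cells of day 1 were lower, at 3.984 to 4.129. The median fraction was 0.220. Of 25 members with a step, 5 were held at day 1 (12% of all step genes), among them Mcm6, Rpa2, Rpa3, and Fen1. Cdc6, which loads the helicase, measured 4.96 to 7.68 CPM in C70 day 2, 4.11 to 6.95 on vehicle day 1, and 9.41 to 11.6 on vehicle day 2, and Tk1, thymidine kinase, 13.8 to 15.5, 11.6 to 14.4, and 22.6 to 26.2. Cdc45, part of the active helicase, was partway at 37.0% of its step. The lower ones included Prim1, the primase subunit, which was flat in vehicle cells and 0.65 log2 units lower in C70 day 2 cells. The E2F letters TTTGGCGC or TTTCCCGC, on both strands, stood in 25% of 48 promoters of these genes and in 2.98% of promoters of tested genes.

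Of 22 cyclins, kinases, and inhibitors of the G1 phase, 4 were higher and 2 lower than on vehicle day 1, which is close to the shares of 17.3% and 11.7% over all genes. Against vehicle day 2, 4 were higher and 8 lower, beside 16.9% and 13.6%. Ccnd1, cyclin D1, was backward, at 47.9, 42.9, 44, and 43.4 CPM in C70 day 2 beside 33.4, 33.3, and 32.6 on vehicle day 1 and 14.6 to 14.9 on vehicle day 2 (log2 difference from vehicle day 1 0.43 ± 0.085, SE, adjusted P = 1e-04). Its day 0 level in vehicle cells was 215 to 233 CPM. Ccne1, cyclin E1, measured 24.5 to 27.5 CPM beside 21 to 22.7 and 35.7 to 38.2, with no call against vehicle day 1 because the fold change was 1.18. Ccnd2 and Cdk6 were partway at 69.3% and 40.2% of their rise. Cdkn2a and Cdkn2b, inhibitors of CDK4 and CDK6, were held at the day 1 level, and Cdkn1b had reached day 2.

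**Figure D3:**
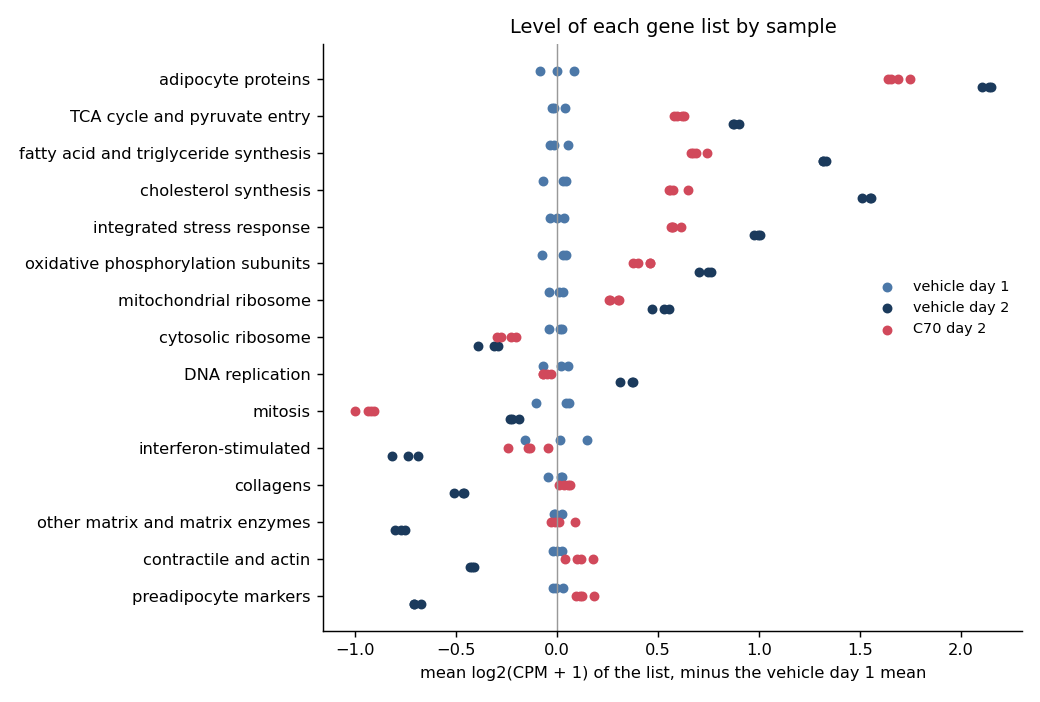
Each point is the mean log2(CPM + 1) of a gene list in 1 sample, as the difference from the vehicle day 1 mean on the x axis. C70 day 2 samples lie between the vehicle days for adipocyte, lipid, and mitochondrial lists, at the vehicle day 1 level for DNA replication, collagen, and matrix lists, and below both for mitosis.

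For preadipocyte, matrix, and contractile lists, members were called in both directions. The mean log2(CPM + 1) of preadipocyte markers was 5.175 to 5.263 in C70 day 2 samples, 5.062 to 5.109 on vehicle day 1, and 4.371 to 4.406 on vehicle day 2. That of contractile and actin genes was 6.317 to 6.455, 6.258 to 6.301, and 5.846 to 5.867 in the same order. Every C70 day 2 sample was thus above every vehicle day 1 sample for these lists under TMM, on the side away from day 2. For the contractile list the gap was small, 6.317 beside 6.301. The median log2 difference of all genes from vehicle day 1 was 0.0204 under TMM and -0.0424 under quantile normalization, a larger shift than that gap. These list means were not measured under other scalings. The collagen and other matrix lists overlapped vehicle day 1, with 7.952 to 8.006 beside 7.901 to 7.970 and 7.318 to 7.435 beside 7.334 to 7.372. Of all genes, 22% fell in the normal step, 17.3% were higher and 11.7% lower than on vehicle day 1, and 16.9% were higher than on vehicle day 2. Of 18 preadipocyte markers, 12 fell in the normal step, 7 were higher and 4 lower in C70 day 2 than in vehicle day 1 cells, and 11 were higher than on vehicle day 2. Dlk1, the secreted inhibitor of adipogenesis known as Pref-1 (chromosome 12, 109452823 to 109463336 in GRCm38), was among the lower ones. It measured 1020, 1030, and 1030 CPM on vehicle day 1, 321, 301, 314, and 331 in C70 day 2, and 159, 159, and 167 on vehicle day 2. C70 day 2 cells were at 63.7% of this step and 1.96 times vehicle day 2 (log2 difference from vehicle day 1 -1.70 ± 0.092, SE, adjusted P = 9.3e-16).

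Thy1, a surface glycoprotein of fibroblasts, was above vehicle day 1. It measured 54.1, 47.9, and 48 CPM on vehicle day 1, 75.6, 75.2, 71.2, and 75.4 in C70 day 2, and 12.6, 10.4, and 11.5 on vehicle day 2. In C70 cells its level on day 1 was higher still, at 132 to 144 CPM. Ly6a (Sca-1), Ly6c1, Cd24a, and the Wnt ligand gene Wnt6 were the other backward markers. Ly6a stood at 55.8 to 64.1 CPM in C70 day 2 cells, above all 4 vehicle days, of which day 0 was the highest at 33.4 to 42.9. Sox9 was partway at 42.4% of its fall.

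Of 24 collagen genes, 13 fell in the normal step, 10 were higher and 8 lower in C70 day 2 than in vehicle day 1 cells, and 12 were higher than on vehicle day 2. Col1a1 and Col1a2, the chains of type I collagen, stood at 60.9% and 65.9% of their normal fall. Col1a1 measured 3130 to 3550 CPM on vehicle day 1, 1410 to 1560 in C70 day 2, and 852 to 915 on vehicle day 2. Col3a1, of type III collagen, was held at day 1, and Col23a1 was backward, at 14.4 to 15 CPM beside 3.79 to 4.74 and 1.02 to 1.39. Col15a1 and Col6a2 were above all vehicle days.

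Of 41 other matrix genes, 32 fell in the normal step, 11 were higher and 14 lower than on vehicle day 1, and 35 were higher than on vehicle day 2. Postn (periostin), Fbn1 (fibrillin 1), and Vcan (versican) had covered 55.0%, 55.2%, and 58.4% of their falls. Lox and Loxl1, which cross-link collagen, were held at day 1, as were Thbs2, Fbln2, Lamc1, and Hspg2. Dcn (decorin), a small proteoglycan, was backward, with 225 to 270 CPM in C70 day 2 beside 77.3 to 91.1 on vehicle day 1 and 41 to 41.8 on vehicle day 2, and its day 0 level was 349 to 474.

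Of 20 contractile and actin genes, 13 fell in the normal step, 6 were higher and 5 lower than on vehicle day 1 (17.3% and 11.7% of all genes), and 13 were higher than on vehicle day 2 (16.9%). Cald1 (caldesmon) and Vim (vimentin) were partway at 48.2% and 62.7%, Actn1 and Myh9 were held at day 1, and Tagln, Cnn2, Mylk, and Lmod1 were backward. Lmod1 was low throughout, at 0.731 to 1.44 CPM in C70 day 2 cells, and left that class in 2 of 10 fits without 1 library.

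Of 36 interferon-stimulated genes, 28 fell in the normal step (22% of all genes), 7 were higher and 12 lower than on vehicle day 1 (17.3% and 11.7%), and 25 were higher than on vehicle day 2 (16.9%). Their median fraction was 0.293. B2m and H2-D1 of class I antigen presentation and the signal transducer Stat2 were held at day 1 together with Ifi204, while Ifi44 was backward at 12.9 to 15.3 CPM beside 8.01 to 9.08 and 1.13 to 1.68, and Oasl2 partway at 2.04 to 2.66 beside 4.19 to 9.17 and 0.46 to 1.12, though Oasl2 could not be placed without vehicle day 2 replicate 3. The spread among vehicle day 1 samples was wide for this list, with a mean log2(CPM + 1) of 3.608 to 3.915 that took in part of the C70 day 2 range of 3.524 to 3.723.

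Of 28 genes of the integrated stress response, which adapts amino acid supply to demand, 21 rose in the normal step, 19 were higher than on vehicle day 1 (17.3% of all genes) and 19 below vehicle day 2 (13.6%), with a median fraction of 0.592. Trib3, a pseudokinase, measured 10.8 to 13.9 CPM beside 1.83 to 2.6 and 26.4 to 27.5, and Slc7a5, an amino acid transporter, was at 72.5% of its step. Of 21 genes that respond to glucocorticoid, 6 were higher and 6 lower than on vehicle day 1, beside the 17.3% and 11.7% of all genes. Hsd11b1, which activates glucocorticoid within the cell, was past day 2, with 63.7, 67, 66.3, and 60.6 CPM in C70 day 2 beside 5.51 to 7.35 on vehicle day 1 and 31.3 to 35 on vehicle day 2. Sult1a1 and Lcn2 were past day 2 as well, whereas Tsc22d3 (GILZ) and Sgk1 were held at day 1.

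By the rule for named genes, those held at day 1 with the largest vehicle step were Sc5d, Stard4, and Mxi1 among rising genes and Psrc1, Tnxb, and Lgals9 among falling genes. Psrc1, a microtubule-binding protein, measured 39.1, 38.3, and 35.9 CPM on vehicle day 1, 35, 34.5, 37.3, and 36.2 in C70 day 2, and 12.5, 10.5, and 11 on vehicle day 2. Tnxb, the matrix protein tenascin X, measured 119, 114, and 117, then 103, 97.6, 119, and 120, then 37.9, 39.3, and 36. For both, C70 day 2 overlapped vehicle day 1 and was 3.16 and 2.91 times vehicle day 2, respectively. Tnxb could not be placed under quantile normalization (log2 difference from vehicle day 1 -0.171).

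Lgals9, the glycan-binding galectin 9, gave 0.995 times vehicle day 1 and 3.02 times vehicle day 2. Mxi1, a partner of MAX that opposes MYC, was at 35.7 to 38.3 CPM beside 30.5 to 33.3 and 55.4 to 57.6. It had therefore covered 25.5% of its step within the margin, and it left the held class in 5 of 10 fits without 1 library. Among genes that had reached day 2, Anxa8 (an annexin) measured 144 to 160 CPM beside 29.2 to 35.2 and 150 to 162, Emb (embigin) 38.1 to 39.4 beside 112 to 121 and 37.2 to 41.1, and Adam19 (a metalloprotease) 45.7 to 48 beside 114 to 123 and 46.9 to 55.6. Adam19 could not be placed without vehicle day 2 replicate 3. Lama5, a laminin chain, was partway in its fall at 42.4 to 48.9 CPM beside 63.6 to 82.5 and 6.55 to 9.13.

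**Figure D4:**
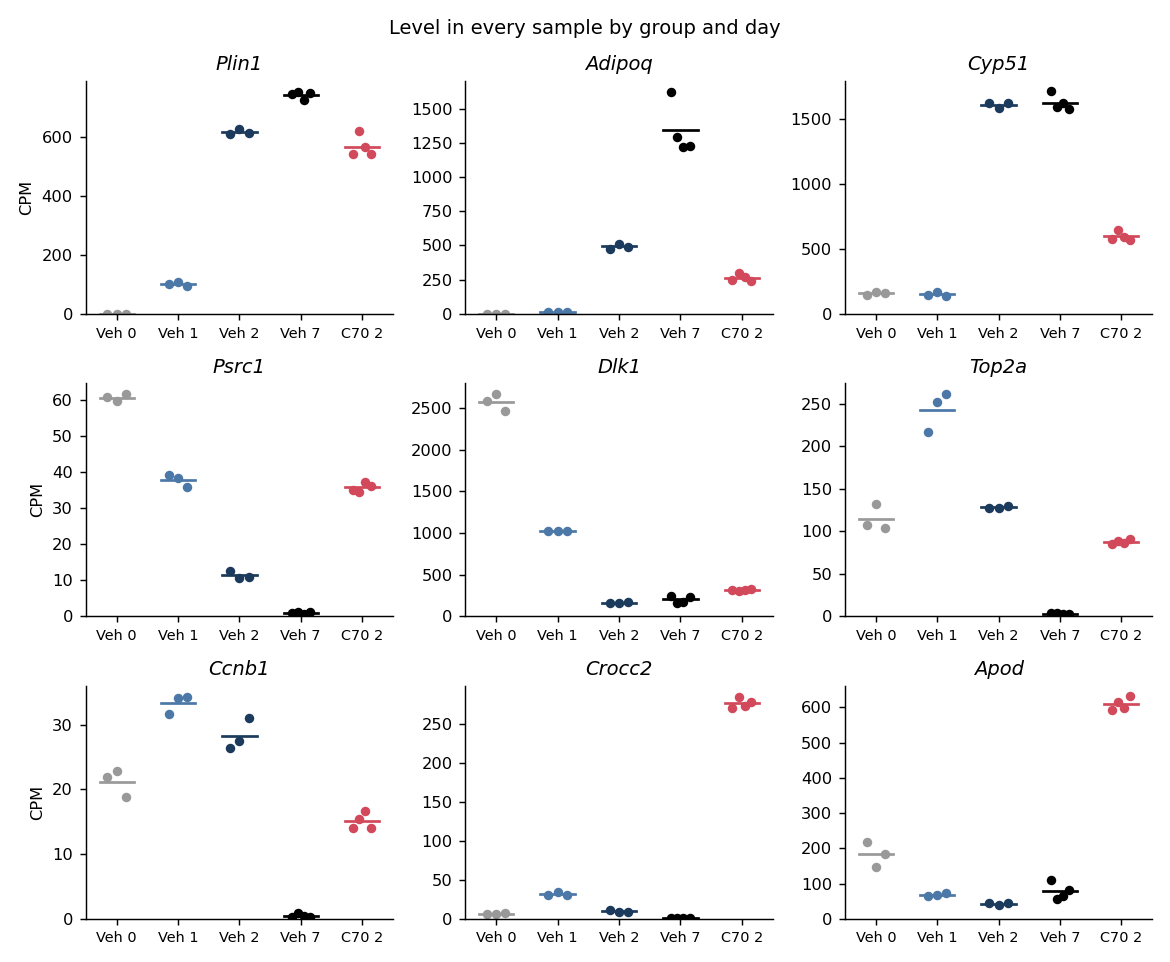
Level of 9 genes in CPM (y axis, from 0) in every vehicle sample of days 0, 1, 2, and 7 and every C70 sample of day 2. Points are samples and lines are group means. In C70 day 2 cells, Plin1 was at the vehicle day 2 level, Psrc1 was at the vehicle day 1 level, Top2a and Ccnb1 lay below days 0, 1, and 2, and Crocc2 and Apod lay above every vehicle sample.

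C70 day 2 cells also held levels that vehicle cells showed on none of the 4 days. In total 146 genes (1.22%) were called above all 4 vehicle days and 44 (0.368%) below all 4. That split depended on scaling, since quantile normalization gave 127 above and 105 below. Many of these genes had low levels. Without the lowest 25% of genes by mean level, 71 were above and 15 below. Of the 146 genes above, 60 fell and 21 rose in the normal step, beside 22% and 22.3% of all genes. The other 65 did not pass the test there, which 44.3% of all genes passed. Of the 146, 32 exceeded each vehicle day more than 2-fold. Of the 44 below, 36 did not pass the test in the normal step and 3 differed more than 2-fold from each day. The classes are not disjoint, since 64 of the 240 backward and 25 of the 128 past day 2 genes were among them.

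Crocc2, which encodes a rootletin-like protein, was the farthest above the course of the genes named. It measured 271, 285, 273, and 278 CPM in C70 day 2, 30.8, 33.9, and 31.2 on vehicle day 1, and 10.8, 9.37, and 8.65 on vehicle day 2. Its level was at most 7.85 on day 0 and 0.698 on day 7. The C70 level was 8.67 times vehicle day 1 and 28.8 times vehicle day 2 (log2 difference from vehicle day 1 3.12 ± 0.078, SE, adjusted P = 4.2e-23).

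Apod, the lipid-binding apolipoprotein D, measured 593, 615, 598, and 631 CPM in C70 day 2, 66.1, 67.6, and 72.8 on vehicle day 1, and 45.7, 39.1, and 45 on vehicle day 2, with 148 to 219 on day 0 and 55.9 to 111 on day 7. Every C70 day 2 sample thus stood above every vehicle sample. Ctla2a, a cathepsin inhibitor-like protein, rose in the normal step from 14.2 to 16.3 up to 28.8 to 32.8 CPM and stood at 93.8 to 104 in C70 day 2, beside 20.6 to 43.5 on day 7.

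Cd33, a lectin of myeloid cells, stood at 103 to 122 CPM beside 28 to 33.2 on vehicle day 1 and at most 3.06 and 0.245 on days 0 and 7. Cd68, a lysosomal protein used as a macrophage marker, was likewise above all vehicle days, with 6.35, 6.52, 6.94, and 6.92 CPM in C70 day 2, 1.74 to 2.01 on vehicle day 1, and at most 2.69 on day 7. The other macrophage markers of the list, Ptprc and Adgre1, were not analysed here, and the part of other cells in these levels was not tested. Des (desmin) was past day 2 at 4.76 to 5.39 CPM beside 3.48 to 3.64, and vehicle day 7 was higher at 40.6 to 50.9.

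Below the course, Nupr1, a stress-induced nuclear protein, was the farthest of the genes named. It measured 10.8, 10.5, 11.1, and 11 CPM in C70 day 2, 23, 26.8, and 25.9 on vehicle day 1, and 23.7, 26.1, and 24.8 on vehicle day 2, with 26 to 28.1 on day 0 and 84.9 to 112 on day 7. It was flat in vehicle cells over days 1 and 2 and 0.431 times the vehicle day 1 level in C70 cells (log2 difference -1.21 ± 0.092, SE, adjusted P = 1.6e-12).

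Rnd2, a small GTPase, measured 8.91 to 10.7 CPM beside 12.3 to 14.9 on vehicle day 1 and 16.7 to 19.7 on vehicle day 2, and it overlaps Vat1 on the other strand. Sri (sorcin), a calcium-binding protein, measured 26.4 to 29 CPM beside 37.5 to 38.7 and 34.1 to 37.3. Rnd2 and Sri were no longer called below the course with a fold change over 1.5. Their log2 differences from vehicle day 1 were -0.515 and -0.456.

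Of 21 enzymes that set H3K4 methylation, none was higher and 2 were lower in C70 day 2 than in vehicle day 1 cells, beside 17.3% and 11.7% of all genes. Kdm5a and Kdm5c, targets of the drug, were flat in vehicle cells and stood at 178 to 207 and 172 to 186 CPM in C70 day 2 beside 176 to 182 and 173 to 183 on vehicle day 1. Kdm5b measured 108 to 118 CPM beside 135 to 139 on vehicle day 1 and 102 to 110 on vehicle day 2, a fold change of 0.82 that was under the threshold. The lower genes were Kdm2b, which had reached its day 2 level, and Setd1b, an H3K4 methyltransferase. Setd1b was below all 4 vehicle days, at 61.6, 63.7, 58.9, and 61.4 CPM beside 85.3 to 91.8 on vehicle day 1, 78.8 to 88.2 on vehicle day 2, and at least 71.3 on days 0 and 7. With a fold change over 1.5 it lost this call (log2 difference from vehicle day 1 -0.523).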

How the data were processed

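The authors deposited whole-number counts per gene, without scaling between samples, for 11959 genes. Reads of strand-specific libraries had been mapped by the authors to GRCm38 (Ensembl 97 annotation) using STAR 2.7.2a. The counting program, its use of strand, and the filter on low genes are not given in the sources used here. Symbols were found for 11953 genes in GENCODE vM21 of the same build.

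The counts of all 29 samples were normalized by TMM and fitted in R 4.3.3 with edgeR 4.0.16 (quasi-likelihood, 8 group means, no covariate), with Benjamini-Hochberg adjustment over all genes within each comparison. Fractions are the log2 difference of C70 day 2 from vehicle day 1 over that of vehicle day 2, so both share the vehicle day 1 samples. Intervals are 95% and the margin and the least fold change are 0.32 log2 units (1.25-fold). The pseudocount for log2(CPM + 1) is 1. Replicate numbers are shared between groups, but same-numbered samples did not deviate together (9 pairs, r from -0.0758 to 0.0803), so no pairing was used. Depth was 16320275 to 24037170 counts per sample over the series.

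The named genes were those with the largest differences in each place among genes above the median level whose replicates did not overlap, a panel of adipogenic and cell cycle genes, and up to 4 members of each list with the largest vehicle step. List members named behind a count of calls or places were chosen after their values were seen. The lists, members, and rules were chosen with earlier results of these data known. Alternatives were other scalings, thresholds, margins, and filters, limma 3.58.1, DESeq2 1.42.0, a fit of 3 groups, a replicate block, and leaving out each library. The calls and the held class were tried on simulated data. There, C70 day 2 cells sat at the vehicle day 1 level apart from a random set of changed genes. The other places, the genes outside the course, and the fractions were not simulated. Promoters came from RefSeq (GRCm38.p6), with a match for 9007 of 11959 genes. Tables and plots were made with Python 3.11.15, pandas 2.3.3, and matplotlib 3.10.9.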

Additional observations from a re-analysis of the deposited data

Results flagged for a closer look

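In the 4 C70 day 2 replicates, 9 of 137 values tested had 1 sample far from the other 3 by Dixon's criterion, which chance gives in about 5% of groups. Replicate 2 was highest for the mean log2 CPM of the integrated stress response list (6.083), for Agpat2 (357.6 CPM), and for Dld (383.2 CPM), and lowest for Col1a2 (2464.0 CPM). Replicate 1 was lowest for Lgals9 (22.36 CPM) and Rps12 (372.5 CPM), replicate 3 was highest for Cdk4 (205.2 CPM) and lowest for Thy1 (71.17 CPM), and replicate 4 was lowest for Uqcrfs1 (114.5 CPM). Of these genes, none changed its place when a single library was left out.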

How the results depend on the processing

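Counts moved most with the threshold. With a fold change over 1.5, C70 day 2 against vehicle day 1 gave 1578 calls (1038 higher, 540 lower), the vehicle step 2964, and C70 day 2 against vehicle day 2 1740, with 188 genes held, 291 partway, 123 reached, 51 past, 84 backward, 82 above and 6 below the course, and a falling fraction of 0.361. With the adjusted P alone, C70 day 2 gave 5797 calls against vehicle day 1 (3286 higher, 2511 lower) and 6064 against vehicle day 2, with 1425 held, 2220 partway, 1232 reached, 273 past, 448 backward, 266 above and 138 below. An adjusted P under 0.01 left 23 below. Held and reached genes numbered 208 and 170 with a narrower margin, 1299 and 1195 with a margin of 1.5-fold, and 1420 and 1308 when a missing call stood for the interval. Without the lowest 25% of genes by mean level, 75 were past, 137 backward, 71 above and 15 below. Held and reached genes numbered 588 and 517 there, so they fell by a smaller share. Quantile normalization gave 127 above and 105 below. The cause of these moves was not tested.

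The median fraction of falling genes was 0.436 with RLE scaling, 0.463 with upper quartile, 0.486 with quantile normalization, 0.435 with DESeq2, and 0.438 in a fit of 3 groups, and that of rising genes 0.505 with quantile normalization. For steps over 2-fold it was 0.642 rising and 0.310 falling, with 0.606 rising under quantile normalization and 0.346 and 0.406 falling under upper quartile and quantile scaling (an alternative added after seeing the data). On linear CPM, rising and falling genes of all steps gave 0.480 and 0.468. A fit with a replicate block called 3471 genes in C70 day 2 against vehicle day 1, and same-numbered samples share only a number. Leaving out any 1 library moved none of the counts of calls, places, or genes outside the course by over 1.5 times.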

Other observations

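Some genes held at the vehicle day 1 level had not stayed there in C70 cells. Psrc1 measured 72.6 to 79.3 CPM in C70 cells on day 1 and 34.5 to 37.3 on day 2, beside 35.9 to 39.1 on vehicle day 1. Tnxb measured 190 to 214 and then 97.6 to 120 CPM, beside 114 to 119. Thy1, which was backward, measured 475 to 487, 132 to 144, and 71.2 to 75.6 CPM in C70 cells on days 0, 1, and 2, so it fell over these days from a level above that of vehicle cells (237 to 283 on day 0). The C70 level of Sc5d was close to its own day 1 level (22.2 to 25.2, then 27.3 to 31.3 CPM). A match to vehicle day 1 therefore did not show which way a gene was moving.

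The genes outside the course differed in when they left it. Crocc2 was at 17.2 to 21.1 CPM in C70 cells on day 0, 217 to 268 on day 1, and 0.828 to 1.64 on day 7. Cd33 was highest on day 1 in C70 cells, at 186 to 215 CPM, and 0.158 to 0.532 on day 7. Apod was already at 298 to 384 CPM on day 0 and still at 268 to 311 on day 7, beside 55.9 to 111 in vehicle cells. Nupr1 was at 10.2 to 12.5 CPM on day 0 and 11.9 to 12.7 on day 1, and at 83.7 to 98.7 on day 7, within reach of the vehicle range of 84.9 to 112. The mean log2(CPM + 1) of the mitosis list in C70 cells was 4.523 to 4.706 on day 1 and 3.964 to 4.058 on day 2. These values were not tested.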
